A study of Mus musculus with 11 samples.

Results

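Chromatin accessibility was compared between naive CD4 T cells with high and with intermediate fluorescence of an Nr4a1 reporter, both taken from the Ly6C- compartment of the same 3 mice. The comparison used 6 of the study's 11 ATAC-seq libraries, 3 of population D (GFP hi, Ly6C-) and 3 of population C (GFP intermediate, Ly6C-), with all 45508 listed peaks. The remaining 5 libraries, 2 of population A (GFP lo, Ly6C+, mice 1 and 3) and 3 of population B (GFP intermediate, Ly6C+), entered the statistical fit for their spread and serve here for comparison. All mice carried the Tg(Nr4a1-EGFP)GY139Gsat transgene together with the Foxp3tm1Flv targeted mutation, on a C57/BL6 background, and none was treated or given a TCR stimulus. Cells came from spleen and lymph nodes, and all 4 populations were gated as CD4+, Foxp3-RFP negative and CD44 low, 10000 cells to a library. The sort thus excluded cells expressing the red Foxp3 reporter, and every population, the low one included, carried both alleles. Libraries are named by population and mouse, so that D2 is population D of mouse 2. Age and sex of the mice were not given in the sources used here.

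Nr4a1, which encodes the orphan nuclear receptor Nur77, is an immediate early gene of T cell receptor (TCR) signalling, and GFP under its control reports the signal a T cell has recently received from self peptides in the resting animal. Ly6C is a surface protein that falls on naive CD4 T cells with stronger signalling from self. In ATAC-seq, the Tn5 transposase inserts adapters into open DNA, so reads gather at promoters and at enhancers, many of which lie far from the gene they act on. In T cells, TCR signals reach chromatin through AP-1, NFAT and NF-kB factors, while inhibitory receptors, phosphatases and ubiquitin ligases restrain the same pathway. The series title gives the question as the association of strong basal TCR signalling with accessibility.

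Values are reads per peak as the authors scaled them to the depth of each library (rppm). The deposited values were exact multiples of 1 read, which gave between 2597176 reads (D1) and 36859229 reads (D3) behind each library of this comparison. At 10 rppm a peak therefore rested on 26 reads in D1, 69 in D2 and 369 in D3, against 51, 97 and 352 in C1, C2 and C3. Mouse 3 had the deepest library of both populations. Each difference is D minus C in log2(rppm + 1), given with its standard error, and adjusted p is limma's two-sided p with Benjamini-Hochberg adjustment over all peaks. A peak is called where that p is below 0.05. The fit behind it does not pair libraries by mouse, and a block on the mouse is given as an alternative. Folds on this scale understate the change of weakly open sites. Each peak is named by the gene whose start the authors' annotation found nearest, and it may act on another gene. In these bulk libraries, fewer cells with an open site and a weaker signal per cell cannot be told apart.

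Sites that opened outnumbered sites that closed. Of 45508 peaks, 2052 were higher in D (4.51%) and 678 were lower (1.49%). Higher peaks lay nearest to 1504 genes and lower peaks to 552, with 111 genes in both groups. The median log2 difference was 0.91 among the higher peaks, of which 846 changed by at least 2-fold and 67 by at least 4-fold. Among the lower peaks it was -0.65, with 34 at 2-fold or more and 0 at 4-fold. The median over all peaks was -0.03. The D and C libraries did not overlap at 2051 of the 2052 peaks that rose and at 676 of the 678 that fell. Over all peaks, 4692 lay entirely higher in D (10.3%) and 4128 entirely lower (9.07%), called or not.

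A block on the mouse gave 3104 higher peaks (6.82%) and 2062 lower ones (4.53%), and these included all 2730 peaks called without it, in the same direction. Closing was thus the part of the count that the pairing moved most, and the share of calls that were higher went from 75.2% to 60.1%. Leaving out mouse 3, the deepest, left 391 higher and 13 lower, leaving out mouse 2 left 831 and 69, and thinning all libraries to the depth of the shallowest left 779 and 124. Without C2 alone, 1796 peaks were called, and the lower count was 333 without C1, 389 without C2, 338 without C3 and 378 without D2.

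**Figure D1:**
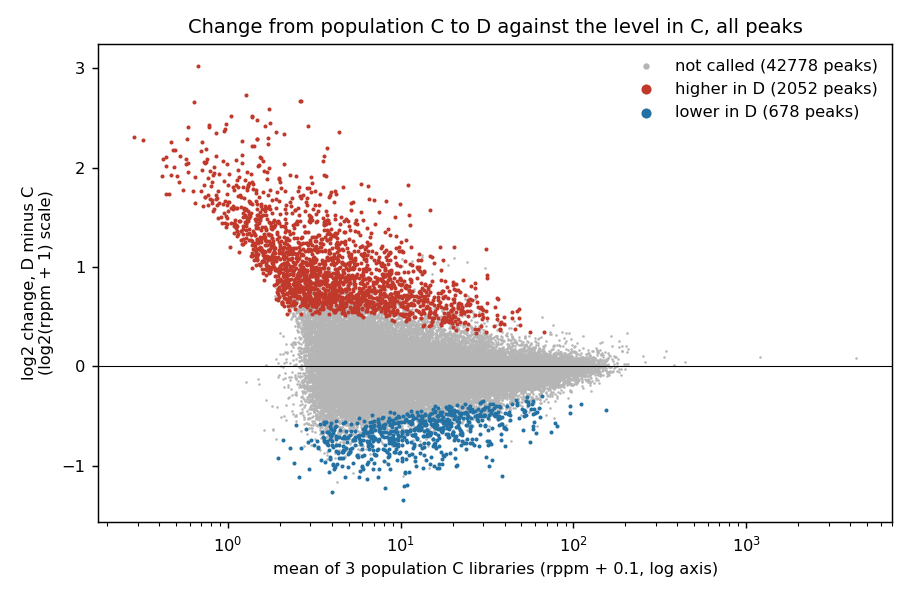
Log2 difference D minus C of each of the 45508 peaks (y axis) against its mean level in population C in rppm (x axis, log scale), with called peaks coloured by direction. The 2052 higher peaks spread to the left, towards low levels in C, and reach beyond a 4-fold change, while the 678 lower peaks stay within 4-fold.

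Sites that opened were mostly weak or near background in population C. Median levels in A, B, C and D were 2.41, 2.98, 3.6 and 8.36 rppm for the higher peaks and 13.1, 13, 12.4 and 7.4 rppm for the lower ones, against 9.65, 9.94, 9.96 and 9.98 rppm over all peaks. Higher peaks already stood in order of reporter and Ly6C before D: B exceeded A at 82.4% of them, and C exceeded B at 78.6%, against 54.6% and 49.6% of all peaks. At the lower peaks these shares were 41.2% and 41.2%. Lower peaks were seldom lost, since 431 of them (63.6%) still had at least 5 rppm in D and 6 had less than 1.

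The level in C and the difference share the C values, and every listed peak reached 1 rppm in at least 3 libraries. A site that is very low in C is therefore listed only because it is open elsewhere: all 100 peaks below 1 rppm in A, B and C were higher in D, with a median of 4.87 rppm there. Of the 9848 peaks at 2 to 5 rppm in C, 852 rose and 92 fell. Among the 14114 peaks at 20 rppm or more, falls were the commoner change, with 102 higher and 184 lower.

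Few of the changes were at promoters. Of the higher peaks, 112 (5.46%) lay within 1 kb of a gene start, and of the lower peaks 21 (3.1%), compared with 12206 of all peaks (26.8%). With promoters taken as the authors' file annotates them, the shares were 3.56%, 1.77% and 16%. The median distance to the nearest start was 24.4 kb for higher peaks, 22.6 kb for lower peaks and 9.59 kb for all. The share of peaks called higher grew with that distance, from 0.918% within 1 kb to 8.98% beyond 100 kb, and the share called lower went from 0.172% to 2.62%. Introns held 50.4% of the higher peaks and intergenic DNA 41.6%. Annotated repeats held 22.6% of the lower peaks, 15.2% of the higher and 12.6% of all, and long terminal repeats alone held 9.14%, 6.04% and 4.72%.

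**Figure D2:**
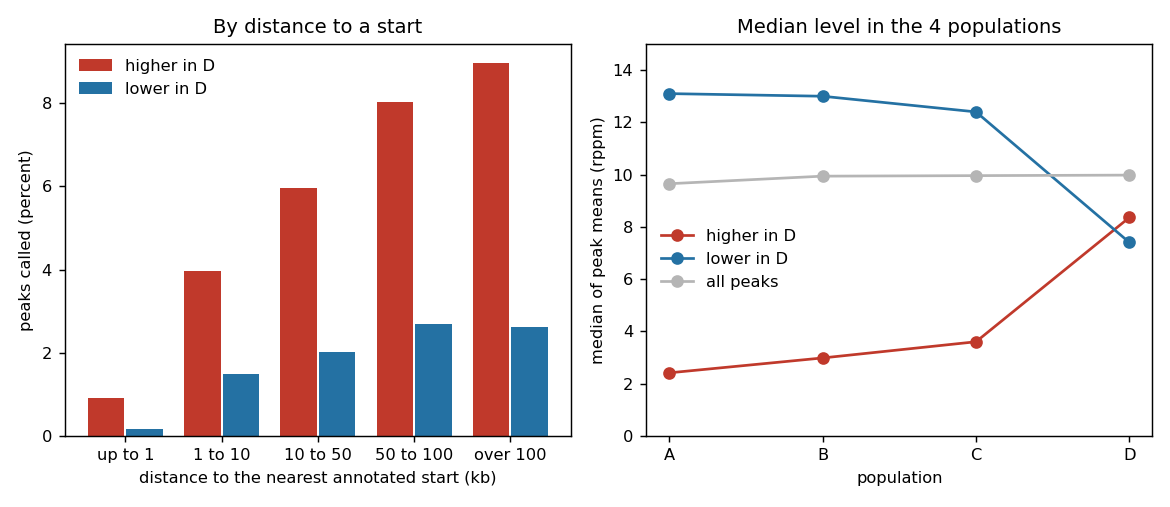
Left, the percentage of peaks called higher or lower in D (y axis) by distance of the peak from the nearest gene start in kb (x axis). Right, the median level in rppm (y axis) of higher, lower and all peaks in populations A to D (x axis); higher peaks go from 2.41 in A to 8.36 in D, and lower peaks from 13.1 to 7.4.

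The strongest openings were at sites with low levels in C. The largest was in intron 2 of Scyl2 (chr10:89677829-89678555, mm10), which encodes a protein of clathrin-coated vesicles. Its levels were 0.196, 0.823 and 0.681 rppm in C1, C2 and C3 and 13.1, 11.1 and 10.6 in D1, D2 and D3. The A and B libraries had 0.403 to 0.798 rppm, and every D library was far above all others. The log2 difference was 3.02 ± 0.18 (adjusted p = 2.94e-06). With A, B and C below 1 rppm, this peak is listed only through D, so its direction was fixed by the listing. All 102 peaks averaging below 1 rppm in C were called higher in D. They include sites of Il1b, Dusp4, Cxcr5, S100a6 and Atxn1 given below. A site 65.5 kb upstream of Ppp2r5c, a regulatory subunit of protein phosphatase 2A (chr12:110381120-110382306), had 1.96, 1.54 and 1.36 rppm in C and 15.4, 13.2 and 15.5 in D. Here C was above A and B, which had 0.101 to 0.229 rppm, and D was higher again, by 2.59 ± 0.15 (adjusted p = 2.87e-06).

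Kinase genes were among these sites. The one in intron 14 of Stk39, a kinase of the stress and ion transport pathways, went from 1.18, 0.617 and 1.7 rppm in C to 15.4, 11.1 and 12.9 in D, and the one in intron 1 of Sik3, a salt-inducible kinase, from 2.55, 2.88 and 2.19 to 27.7, 17.6 and 20.1. Both groups of libraries were far apart, with log2 differences of 2.73 ± 0.21 and 2.67 ± 0.18 (adjusted p = 8.75e-06 and 5.81e-06). A site 10.2 kb upstream of Ergic1, a protein of early secretory traffic, reached 28.5, 17.3 and 19.6 rppm in D from 2.35, 2.78 and 2.38 in C. One 14.4 kb upstream of Il1b, the gene of interleukin-1 beta, had 1.18, 0.72 and 0.908 rppm in C and 13.5, 8.14 and 9.17 in D (log2 difference 2.52 ± 0.19, adjusted p = 7.58e-06). The other sites named for size lay near Akr1d1, Riok1, Prr5l, C1ql3, Ptger2 and Ankdd1b, with log2 differences between 2.42 ± 0.24 (Ankdd1b) and 2.66 ± 0.21 (Akr1d1); those of C1ql3 and Ankdd1b lie inside other genes, in intron 8 of Rsu1 and intron 7 of Polk. None of these 12 sites lost its call in an alternative that tested it; with a minimum mean of 5 rppm, only those of Sik3, Ergic1 and Ankdd1b were tested.

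The largest closings were smaller and started from open sites. A site 81 kb upstream of Syt6, a synaptotagmin (chr3:103493840-103494622), had 11.8, 11.6 and 7.29 rppm in C and 3.85, 3.2 and 2.96 in D (log2 difference -1.35 ± 0.25, adjusted p = 0.00457). One 10.7 kb upstream of Zc3h12a, which encodes Regnase-1, an RNase that degrades mRNAs of activation genes, had 7.07, 5.86 and 6.01 rppm in C and 1.54, 2.18 and 3.53 in D (-1.14 ± 0.20, adjusted p = 0.00387). All D libraries were below all C libraries at both sites, but the call ended without mouse 2 (adjusted p = 0.111 and 0.0831). The site 66.5 kb downstream of the start of Neto2 was more open, with 47.3, 36.7 and 32.1 rppm in C and 21.9, 14.4 and 16 in D (-1.11 ± 0.18, adjusted p = 0.00172); its call ended without mouse 2 (0.0646) or mouse 3 (0.068).

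**Figure D3:**
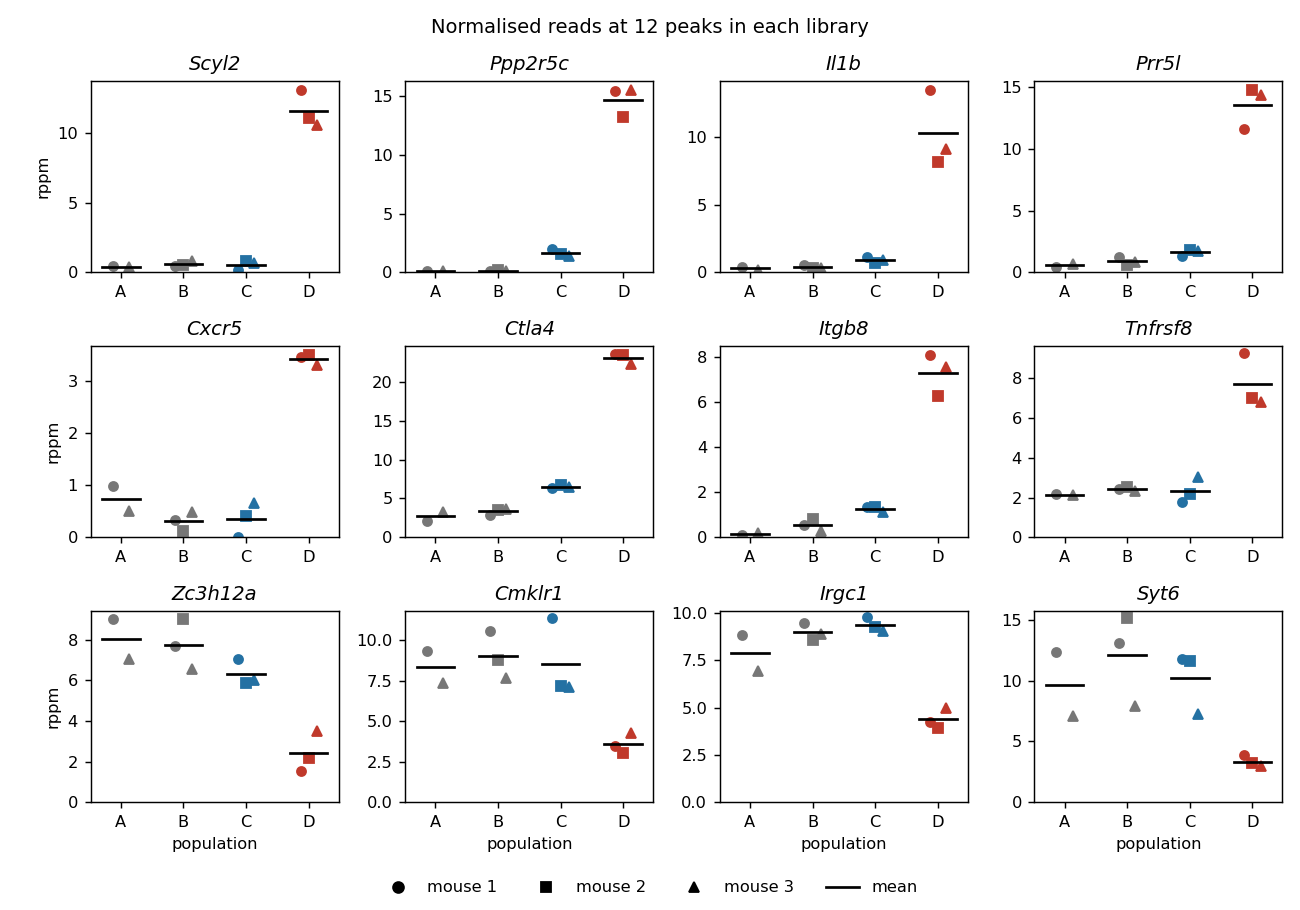
Level in rppm (y axis) of 12 called peaks in each of the 11 libraries, by population A to D (x axis); points are libraries and bars the population means. At Scyl2, Ppp2r5c, Il1b, Prr5l, Cxcr5, Ctla4, Itgb8 and Tnfrsf8 the 3 D libraries lie above all others, and at Zc3h12a, Cmklr1, Irgc1 and Syt6 below those of C.

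Genes induced by TCR signalling carried more openings than closings. Of 204 peaks of 31 such genes, 27 were higher (13.2%, against 4.51% of all peaks) and 2 lower (0.98%, against 1.49%), and their median log2 difference was 0.05. Rises were found at 17 genes, among them Dusp4 with 3 of its 10 peaks, Tnfrsf9 with 4 of 7, and Irf8, Tagap, Xcl1, Dusp2 and Nr4a2 with 2 each. A site 51.8 kb upstream of Dusp4, a phosphatase that inactivates MAP kinases, had 0.589, 0.926 and 1.08 rppm in C and 8.86, 7.13 and 10.3 in D. The D libraries stood far above C, by 2.38 ± 0.19 (adjusted p = 1.23e-05). Upstream of Irf8, an interferon regulatory factor, a site at 10.7 kb went from 4.51, 5.45 and 7.21 to 14.6, 14.4 and 13.8 rppm (1.20 ± 0.16, adjusted p = 0.000451). At Tnfrsf9, which encodes the costimulatory receptor 4-1BB, a site 23.2 kb from the start went from 2.55, 1.95 and 3.01 to 6.55, 6.25 and 7.79 rppm (1.17 ± 0.16, adjusted p = 0.000476).

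The list's other Nr4a members changed less. The promoter peak of Nr4a2 had 20.4, 19.9 and 19.8 rppm in C and 27.3, 32.1 and 28.3 in D (0.52 ± 0.12, adjusted p = 0.0215), and its call ended without C2, C3, D2 or D3 (adjusted p between 0.0535 and 0.0852). One of 10 peaks of Nr4a3 was higher, at 0.56 ± 0.14 (adjusted p = 0.0333), lost without C2 (0.139), C3 (0.117) or D1 (0.0743). None of the peaks of Egr1, Egr2, Egr3, Cd69, Il2 or Cd40lg passed the test (with the block, 1 of Egr2 was higher, 1 of Egr3 lower and 2 of Cd40lg lower), and Myc and Tnfrsf4 (OX40) had 1 lower peak each. The count of higher peaks was 17 without C1, 16 without C3, 17 without D2 and 15 without D3. With the mouse block 7 peaks of the list were lower, and the lower count was 1 without C3 or D2. Only 3 peaks were higher without mouse 3, 9 without mouse 2 and 9 at equal depth.

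Negative regulators of activation also carried more openings than closings. Of 368 peaks of 49 genes, 47 were higher (12.8%) and 2 lower (0.543%), with a median log2 difference of 0.02, and 22 of the 49 genes had only rises. Ctla4, Ndrg1, Sla and Rasa1 had 5 higher peaks each and Rasa2 had 4. Among those of Ctla4, only the one in intron 3 kept its call whichever C or D library was left out. The one 11.6 kb downstream of the start lost its call without any 1 of them (adjusted p between 0.0606 and 0.146). A site in intron 3 of Ctla4, an inhibitory receptor that competes with CD28 (chr1:60913269-60913747), had 6.28, 6.68 and 6.5 rppm in C and 23.5, 23.4 and 22.2 in D. The 3 D libraries lay close to each other and the difference was 1.68 ± 0.15 (adjusted p = 1.78e-05). Ndrg1, whose product takes part in T cell anergy, had 3.73, 3.5 and 3.23 rppm in C and 15.4, 17.9 and 15 in D at a site 28.8 kb upstream (1.93 ± 0.15, adjusted p = 9.11e-06). Rasa2, a GTPase-activating protein that switches Ras off, had 1.18, 0.926 and 1.28 rppm in C and 6.16, 6.11 and 6.97 in D at a site 29.1 kb upstream (1.80 ± 0.15, adjusted p = 1.14e-05).

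Inhibitory receptors other than Ctla4 followed. The promoter peak of Lag3, a receptor for MHC class II, went from 3.53, 3.19 and 5.11 rppm to 8.86, 9.02 and 10.6 (1.10 ± 0.22, adjusted p = 0.00734). At Pdcd1, the gene of PD-1, the peak 1.15 kb upstream went from 6.08, 5.66 and 4.23 to 15.4, 7.85 and 9.88 rppm (0.89 ± 0.22, adjusted p = 0.0301), and lost its call without C2, C3, D1 or D3 (adjusted p between 0.0609 and 0.123). None of the 5 peaks of Tigit or of Cd5 was called, and with the block 1 of Tigit was lower. In Sla, whose product lowers TCR levels, the 5 higher peaks had log2 differences from 0.63 ± 0.16 to 1.65 ± 0.18. The ubiquitin ligase gene Cblb had 2 higher peaks of 22, and Zc3h12a, described above, was the only gene of the list with a fall and no rise; with the block Socs3 (3 lower), Lgals1, Sla2 and Tigit (1 each) were others. Leaving out 1 library gave 36 to 49 higher peaks, and the mouse block gave 65 higher and 16 lower. The lower count was 1 without C1 or C3 and 9 without D1. Without mouse 3, without mouse 2 and at equal depth, 9, 22 and 19 peaks were higher.

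Genes of follicular helper T cells, which help B cells in germinal centres, had 30 of 184 peaks higher (16.3%) and 2 lower (1.09%) and a median of 0.08. Pou2af1, a transcriptional coactivator, had 4 of 5 peaks higher, Il6st, a receptor subunit for interleukin-6, 5 of 27, and Cxcr5, the receptor for the follicle chemokine, 3 of 8. At Cxcr5 a site 28.9 kb upstream had 0, 0.411 and 0.653 rppm in C and 3.46, 3.49 and 3.31 in D, all D libraries well above every other (1.74 ± 0.20, adjusted p = 0.000123). Cd200, an immunoglobulin family ligand, had 5.69, 4.94 and 4.54 rppm in C and 13.5, 19.3 and 18.7 in D at a site 62.2 kb from its start (1.57 ± 0.17, adjusted p = 0.000109). A site 27.1 kb upstream of Il21, the cytokine that supports germinal centre B cells, went from 2.55, 2.67 and 2.61 to 7.32, 6.83 and 7.43 rppm (1.18 ± 0.14, adjusted p = 0.000137). Bcl6, the lineage's repressor, had 1 of 10 peaks higher, with 7.07, 5.86 and 6.84 rppm in C and 19.3, 12.1 and 15.1 in D (1.10 ± 0.19, adjusted p = 0.00334). The lower pair was in Tox. With the block 6 peaks were lower, and none was without C1, C2, C3 or D2. Higher peaks numbered 4 without mouse 3, 16 without mouse 2 and 11 at equal depth. Of the 18 genes with peaks, 11 also stand in another list.

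Genes known from regulatory T cells had 23 of 143 peaks higher (16.1%) and 1 lower (0.699%), with a median of 0.11, although the sort removed cells with the Foxp3 reporter. The only Foxp3 peak, in intron 4, did not pass the test, with 4.12, 3.5 and 5.02 rppm in C and 3.85, 5.67 and 5.48 in D, overlapping. Ikzf2, which encodes the Ikaros family factor Helios, had 6 of 11 peaks higher. Those 32.3 kb and 2.7 kb downstream and 67 kb upstream of the start each lost their call without at least 1 library (adjusted p between 0.0576 and 0.157). The site in its intron 6 (chr1:69544126-69544705) had 2.35, 1.85 and 1.79 rppm in C and 16.2, 9.16 and 9.63 in D, while A and B had between 0.101 and 0.78 (2.04 ± 0.22, adjusted p = 9.3e-05). Icos, a costimulatory receptor, had 3 of 22 peaks higher, with 7.46, 9.15 and 7.49 rppm in C and 22.7, 24 and 19.5 in D at a site 57.5 kb from its start (1.35 ± 0.19, adjusted p = 0.000698). Itgb8, an integrin subunit that activates TGF-beta, had 2 of 3 higher.

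The rises in this list came from 7 genes, of which Ctla4, Icos, Tnfrsf9, Nt5e and Il2ra also stand in other lists, and 14 of the 22 genes had no called peak, among them Foxp3, Ikzf4, Lrrc32, Nrp1, Gpr83 and Entpd1. Summed over the list's 143 peaks, levels were 1851 to 1976 rppm in C and 2036 to 2144 in D, so the groups did not overlap. Sums were also higher in D without overlap for TCR induced genes (4195 to 4288 against 4369 to 4586) and follicular helper genes (2672 to 2777 against 2836 to 3001). For naive homing, interferon and Ly6 genes they were lower in D without overlap. The part of regulatory T cells in the result was not tested. The higher count of the regulatory list was 15 without C1, 15 without C2, 13 without D2 and 15 without D3. Without mouse 3 it was 6, without mouse 2 it was 10, and at equal depth it was 13. The lower count was 0 without C3 or D2, and 6 peaks were lower with the block.

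Effector and memory genes moved in both directions, with 22 of 187 peaks higher (11.8%) and 7 lower (3.74%) and a median of -0.03. Ifng, the gene of interferon-gamma, had 4 of 7 peaks higher, all 17.9 to 28.1 kb from its start. The strongest had 3.34, 4.01 and 3.6 rppm in C and 13.5, 11.6 and 11.9 in D (1.52 ± 0.14, adjusted p = 2.84e-05). S100a6, a calcium-binding protein, had a site that went from 0.392, 0.617 and 0.34 to 3.85, 3.64 and 4.31 rppm (1.77 ± 0.16, adjusted p = 1.96e-05). No peak of Tbx21, Prdm1, Zeb2, Itgb1 or Id2 was called (with the block, 3 of Prdm1 were lower and 1 of Zeb2 higher), and the lower peaks were at Rora (2), Il18r1, Il1rl1, S100a11, Fasl and Cd44. The lower count was 0 without C1, 2 without C2, 1 without C3 and 4 without D1. It was 1 without D2, 3 without D3 and 14 with the block. Rises numbered 5 without mouse 3, 11 without mouse 2 and 8 at equal depth, with 0 falls in each.

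**Figure D4:**
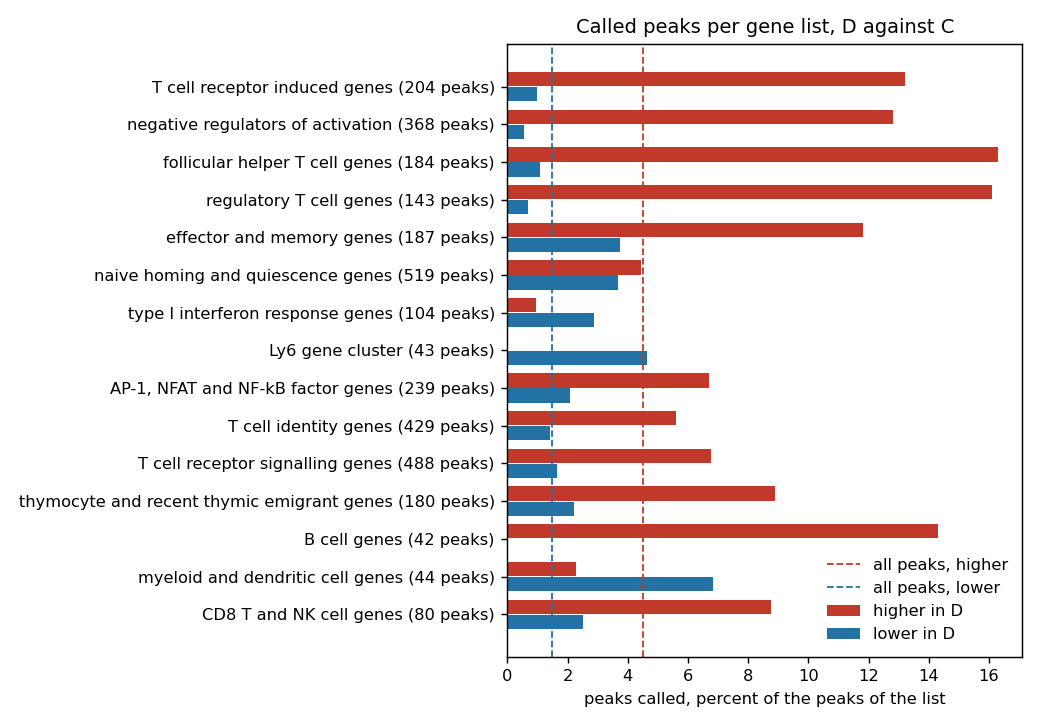
Percentage of each list's peaks called higher and lower in D (x axis) for the 15 gene lists (y axis), with vertical lines at the shares over all peaks, 4.51% and 1.49%. The follicular helper, regulatory, TCR induced and negative regulator lists have 12.8% to 16.3% of peaks higher and 0.543% to 1.09% lower, and the B cell list has 14.3% of its 42 peaks higher and 0 lower.

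Genes of naive homing and quiescence stood near the background for rises and above it for falls, with 23 of 519 peaks higher (4.43%) and 19 lower (3.66%) and a median of -0.08. Il7r, the receptor chain for the survival cytokine interleukin-7, had 8 of 19 peaks lower and 0 higher, and 10 lower with the block. In its intron 1, a site 2.47 kb from the start (chr15:9527073-9527747) had 10, 14.1 and 12.3 rppm in C and 3.46, 6.98 and 6.62 in D (-1.01 ± 0.20, adjusted p = 0.00823). The other 7 had log2 differences from -0.77 ± 0.15 to -0.37 ± 0.10 and lay up to 81.1 kb upstream, 3 of them in introns of Spef2. Of the 8 peaks, the 2 at 2.47 kb and 81.1 kb kept their calls without any 1 library, and the others lost them without at least 1. All 8 lost them at equal depth, without mouse 2 and without mouse 3 (adjusted p between 0.0722 and 0.617).

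Foxp1 and Bach2, which encode factors that hold naive T cells in quiescence, changed in both directions within 1 locus. Foxp1 had 8 higher and 3 lower of 83 peaks. The largest rise, in intron 1, was from 1.18, 1.54 and 1.59 to 11.6, 8.44 and 8.63 rppm (2.10 ± 0.18, adjusted p = 1.44e-05), and the lower 3 fell by 0.35 to 0.65, each losing its call without at least 1 library. Bach2 had 4 higher and 3 lower of 54. Its most open called site, 126 kb upstream, had 78.5, 75.8 and 67.2 rppm in C and 47.4, 46.8 and 44.1 in D (-0.67 ± 0.09, adjusted p = 0.00053), and a site 11.6 kb upstream went the other way, from 14.3, 14 and 12.3 to 23.1, 31.3 and 27.8 (0.96 ± 0.19, adjusted p = 0.00648). None of the peaks of Ccr7, Tcf7 or Klf6 was called; with the block Ccr7 had 1 higher and 1 lower and Tcf7 had 1 lower. The list's lower count was 9 without C2 and 12 without C3, and 52 with the block. It was 0 without mouse 3, 3 without mouse 2 and 3 at equal depth, and higher peaks numbered 3, 9 and 11 there.

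**Figure D5:**
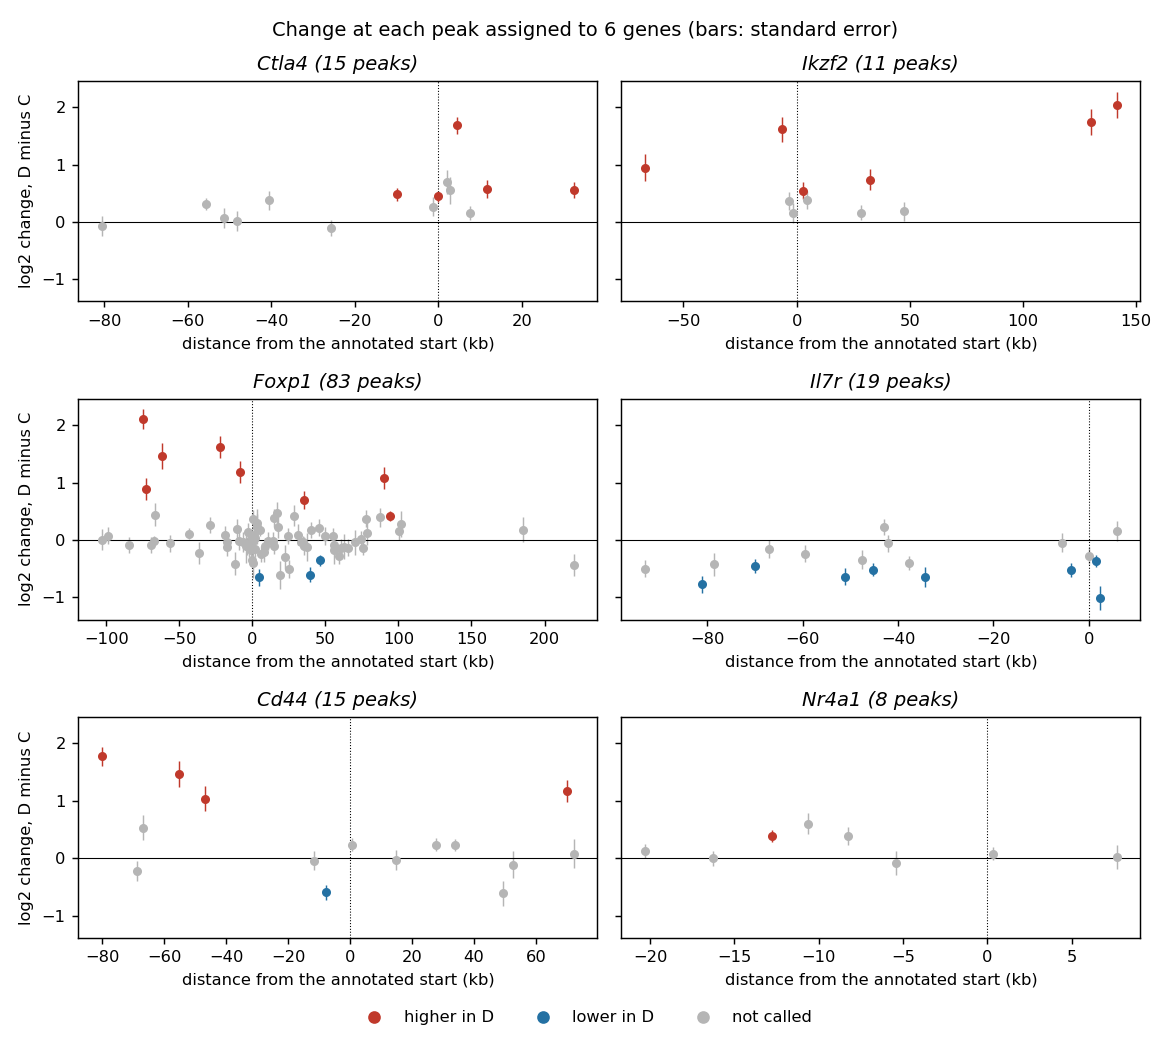
Log2 difference D minus C with its standard error (y axis) of every peak of 6 genes against distance from the gene start in kb (x axis), called peaks coloured by direction. Ctla4 has 5 higher of 15 and Ikzf2 6 of 11, Il7r has 8 lower of 19, Foxp1 has 8 higher and 3 lower of 83, Cd44 has 4 higher and 1 lower of 15, and Nr4a1 has 1 higher of 8.

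Changed peaks gathered at some loci. At 120 genes at least 3 peaks were higher and at 25 genes at least 3 were lower, while 1181 of the 1504 genes with a higher peak had 1. Among genes with proper symbols, Foxp1 had the most higher peaks, 8 of 83 (4.51% of all peaks were higher). Genes with 6 were F13a1 (of 7 peaks), Ikzf2 (11), Atxn1 (15), Tank (19), Bcl2l11 (19) and Trib1 (21). The unnamed transcript 4921525O09Rik had 8 of 20, and Gm14005 and Gm46545 had 6 of 22 and 6 of 14. Genes with more listed peaks can reach such counts more easily, and the gathering was not tested. The 6 of Bcl2l11, which encodes the pro-apoptotic protein Bim, all lie upstream, in introns of Acoxl, and the strongest of them had 4.32, 4.73 and 4.6 rppm in C and 21.2, 17.7 and 16.4 in D (1.80 ± 0.19, adjusted p = 6.84e-05). Those of Tank, an adaptor of TRAF signalling, include 4 sites within 88.7 to 81.5 kb upstream, which rose by 0.58 to 1.09. In Atxn1 an intron 3 site went from 0.392, 0.926 and 0.511 to 5.78, 7.42 and 6.73 rppm (2.26 ± 0.18, adjusted p = 1.23e-05).

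Falls gathered at fewer genes. Of 31 peaks of Wwox 7 were lower, all in intron 8 between 377 and 451 kb from the start. Its 1 higher peak lay 625 kb from the start. The most open of the 7 had 76.9, 73.7 and 84.6 rppm in C and 55.8, 49.2 and 52.7 in D (-0.57 ± 0.09, adjusted p = 0.00226). Pdlim4 had 3 lower of 8 peaks, the strongest going from 30.4, 28.9 and 34.3 to 18.1, 14 and 16.5 rppm (-0.91 ± 0.11, adjusted p = 0.000245). At that site A had 40.5 and 40.4 rppm and B 40.6, 36.3 and 40.4, so D was lowest of the 4 populations. Runs of at least 3 neighbouring called peaks in 1 direction numbered 57 for rises, with 211 peaks, and 8 for falls. The longest run covers a multicopy gene family whose near-identical copies can share reads, and is uncertain for that reason.

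Of the genes used for the sort, Cd44 had the most called peaks, and Nr4a1 and Ly6c1 had 1 each. Nr4a1, the gene that drives the reporter, had 1 of 8 peaks higher, 12.8 kb upstream, with 45.1, 45.6 and 47.3 rppm in C and 59.3, 58 and 63.1 in D (0.38 ± 0.10, adjusted p = 0.0492; 0.00508 with the block). Leaving out any 1 of the 6 libraries ended this call, with adjusted p between 0.0543 and 0.144. With the block 3 of its peaks were higher. The peak over its start and intron 1 had 116, 103 and 109 rppm in C and 139, 102 and 108 in D, overlapping, and did not pass the test (adjusted p = 0.839). The reporter is a bacterial artificial chromosome that carries this region again in every mouse, and reads from it and from the endogenous gene cannot be told apart.

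Cd44, on whose protein all populations were gated low, had 4 higher peaks and 1 lower of 15. The strongest rise, 80.1 kb upstream, was from 1.77, 1.13 and 1.16 to 7.7, 7.71 and 5.72 rppm (1.77 ± 0.17, adjusted p = 3.61e-05), while A and B had 0.101 to 0.572. The fall, 7.88 kb upstream, was from 31.2, 22.4 and 23.2 to 15.8, 18.2 and 15.3 rppm (-0.60 ± 0.14, adjusted p = 0.019), and lost its call without C1 (0.0723) or D3 (0.0728). The peak at its start had 15.9, 16.4 and 20.5 rppm in C and 20.4, 21.7 and 20.2 in D and was not called. Ly6c1, which encodes Ly6C, had 1 lower of 7 peaks although both populations were Ly6C-: 14.9 kb from its start, levels were 10.8, 12.1 and 10.1 rppm in C and 5, 5.96 and 5.4 in D (-0.89 ± 0.12, adjusted p = 0.000511). A and B had 15.1 to 21 rppm there, above both. Its promoter peak and all 5 peaks of Ly6c2 were not called.

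Cd4 had 3 peaks, of which the promoter had 11.4, 12.9 and 15.7 rppm in C and 10.8, 12.8 and 14.6 in D, and none was called. Nor was the 1 peak of Cd8a. Most of the listed genes that define other cells had peaks, and some had none. Of 23 B cell genes 14 had peaks, and Ms4a1, Pax5, Cd22, Ighm and Ighd had none; 6 of 42 peaks were higher (14.3%, against 4.51% of all peaks) and 0 lower, of which 4 are those of Pou2af1, with 1 each at Fcmr and H2-Aa. Their summed level was 467 to 523 rppm in C and 505 to 554 in D. Of 25 myeloid genes 18 had peaks, with none at Csf1r, Lyz2, S100a8 or Siglech. Of their 44 peaks 1 was higher (2.27%) and 3 lower (6.82%, against 1.49% of all peaks). The block gave 3 and 5, and at most 1 was lower without C1, C2, C3, D1 or D2. Their sum was 412 to 470 rppm in C and 362 to 458 in D. Of 23 genes of CD8 T and NK cells 17 had peaks, with none at Ncr1 or Nkg7. Of their 80 peaks 7 were higher (8.75%, against 4.51% of all peaks) and 2 lower (2.5%, against 1.49%). With the block 10 were lower. The higher count was 4 without C1, D2 or D3, and the lower 4 without D1 and 1 without C1, C2, C3 or D2. Their sum was 1444 to 1562 rppm in C and 1401 to 1568 in D. The part of such cells in the results was not tested.

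Signalling and factor genes were closer to the background. TCR signalling genes had 33 of 488 peaks higher (6.76%) and 8 lower (1.64%). Ptprc, the phosphatase CD45, and Inpp4b, a lipid phosphatase, had 5 higher peaks each, and Fyn, a Src family kinase, had 3. A site in intron 2 of Fyn went from 4.12, 4.01 and 4.23 to 13.9, 16.7 and 17.7 rppm (1.73 ± 0.19, adjusted p = 0.000107), and one 29.3 kb upstream of Prkcq, the gene of protein kinase C theta, from 1.77, 3.29 and 2.04 to 10.4, 14.1 and 10.3 (1.92 ± 0.20, adjusted p = 5.99e-05). Prkcq also had 2 lower peaks, and no peak of Lck, Zap70 or Lat was called (1 of Lck was higher with the block). The lower count of the list was 2 without C2, 2 without C3 and 5 without D2, and 26 with the block.

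AP-1, NFAT and NF-kB factor genes had 16 of 239 peaks higher (6.69%) and 5 lower (2.09%). Nfkb1, the p105 and p50 subunit, had 4 of 15 higher, with 4.91, 2.47 and 3.12 rppm in C and 11.2, 11.1 and 10.7 in D in intron 13 (1.45 ± 0.18, adjusted p = 0.000297). A site 11.6 kb upstream of Fosb, an AP-1 subunit, went from 3.14, 2.78 and 3.23 to 10, 6.54 and 8.3 rppm (1.18 ± 0.17, adjusted p = 0.0009). No peak of Fos, Jun, Junb, Nfatc2, Rel or Rela was called, while with the block Jun had 1 higher and 2 lower and Junb 1 lower. The higher count was 10 without D3, the lower 2 without C2, and 12 peaks were lower with the block.

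T cell identity genes had 24 of 429 peaks higher (5.59%) and 6 lower (1.4%), led by Ets1 and Runx1 with 5 rises each. The higher count was 14 without C1, 12 without C2, 15 without D2 and 11 without D3, the lower was 2 without C1, 3 without C3 and 3 without D2, and 21 were lower with the block. Genes of thymocytes and recent thymic emigrants had 16 of 180 higher (8.89%) and 4 lower (2.22%), 10 lower with the block and 1 without C1, C2, C3 or D2. Cd24a, the heat-stable antigen of immature T cells, had 3 of 4 peaks higher, and its peak 1.29 kb upstream went from 1.37, 1.54 and 1.99 to 5.78, 4.8 and 4.15 rppm (1.16 ± 0.18, adjusted p = 0.00116). Type I interferon response genes had 1 of 104 peaks higher (0.962%) and 3 lower (2.88%), with a median of -0.11; the block gave 2 and 8, and the lower count was 0 without C1, C3 or D2 and 1 without D3. The 10 genes with peaks in the Ly6 cluster had 0 of 43 higher and 2 lower (4.65%), at Ly6c1 and Ly6e.

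The promoter peaks that changed are the sites for which sequence can be shown. The largest rise was at Prr5l, a gene of mTOR complex 2 regulation, where the peak 0.525 kb from the start had 1.37, 1.85 and 1.76 rppm in C and 11.6, 14.8 and 14.4 in D (2.45 ± 0.17, adjusted p = 6.86e-06). At Itgb8 the promoter peak had 1.37, 1.34 and 1.14 rppm in C and 8.09, 6.25 and 7.57 in D (1.86 ± 0.16, adjusted p = 2.07e-05), with A and B at 0.109 to 0.801. At Tnfrsf8, the gene of the costimulatory receptor CD30, it had 1.77, 2.16 and 3.04 rppm in C and 9.24, 6.98 and 6.81 in D (1.39 ± 0.17, adjusted p = 0.00024). D stood above every other library at all 3. The Ctla4 promoter was open in C already, with 40, 38.9 and 35.3 rppm, and had 51.2, 54.4 and 50.8 in D (0.45 ± 0.10, adjusted p = 0.0144), a call that ended without C3 (0.0712) or D2 (0.0524). The other rises named for size were at Rab11fip3 (1.74 ± 0.18), Lims1 (1.47 ± 0.16) and Myo1e (1.47 ± 0.14).

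Falls at promoters were smaller. The one at Irgc1, an immunity-related GTPase gene, had 9.81, 9.26 and 9.02 rppm in C and 4.24, 3.93 and 4.99 in D (-0.95 ± 0.14, adjusted p = 0.00092). At Tmem37 the peak had 8.63, 5.86 and 6.41 rppm in C and 1.93, 3.35 and 4.96 in D (-0.90 ± 0.22, adjusted p = 0.0298). Its D libraries lay below its C libraries, but the call ended without C1, C3, D1 or D2 (adjusted p between 0.0567 and 0.12) and with edgeR (0.0794) or DESeq2 (0.0807). Cdh1, the gene of E-cadherin, had 11, 13.8 and 11.3 rppm in C and 6.55, 8 and 7.65 in D (-0.63 ± 0.14, adjusted p = 0.0166), lost without C2 (0.0845).

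Some of these promoters are printed from RefSeq (GRCm38.p6), each as the 250 bases before the annotated start, 5′ to 3′ on the gene's strand, to set 3 that opened beside 1 that closed. Capitals mark matches, on either strand, to the motifs searched: AP-1 TGANTCA, CRE TGACGTCA, NR4A AAAGGTCA, NFAT TGGAAA, Egr GTGGGCG, ETS GGAAGT, RUNX TGTGGT, KLF and Sp GGGCGG, and E-box CAGCTG, of which Egr and KLF and Sp matches can overlap. Tnfrsf8 (chr4:145315165-145315414, minus strand) has 1 AP-1 and 1 KLF and Sp match, and Ctla4 (chr1:60908775-60909024, plus strand) has 1 NFAT match. Itgb8 (chr12:119238277-119238526, minus strand) has none, and Tmem37 (chr1:120073781-120074030, minus strand), which closed, has 1 AP-1 and 2 KLF and Sp matches.
Tnfrsf8: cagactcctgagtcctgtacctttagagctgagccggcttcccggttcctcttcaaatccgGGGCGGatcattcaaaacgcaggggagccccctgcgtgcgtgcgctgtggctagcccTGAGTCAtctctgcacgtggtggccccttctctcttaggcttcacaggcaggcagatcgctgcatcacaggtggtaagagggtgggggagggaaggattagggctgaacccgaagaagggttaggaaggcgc
Ctla4: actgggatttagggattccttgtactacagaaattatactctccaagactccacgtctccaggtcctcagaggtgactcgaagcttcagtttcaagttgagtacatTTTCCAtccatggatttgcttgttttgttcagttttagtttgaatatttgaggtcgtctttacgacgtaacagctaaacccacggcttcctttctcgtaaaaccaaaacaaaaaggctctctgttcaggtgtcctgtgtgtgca
Itgb8: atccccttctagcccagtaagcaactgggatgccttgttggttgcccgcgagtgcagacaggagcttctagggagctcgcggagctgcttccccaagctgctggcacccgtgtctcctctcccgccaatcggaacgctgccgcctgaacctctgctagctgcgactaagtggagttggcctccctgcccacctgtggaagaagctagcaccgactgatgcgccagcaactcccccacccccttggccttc
Tmem37: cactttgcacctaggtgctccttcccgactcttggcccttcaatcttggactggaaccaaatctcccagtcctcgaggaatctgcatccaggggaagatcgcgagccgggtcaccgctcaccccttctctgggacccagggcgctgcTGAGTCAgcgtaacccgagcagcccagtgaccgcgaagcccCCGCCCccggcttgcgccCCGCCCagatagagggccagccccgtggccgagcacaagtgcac

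Over the promoter windows, 250 bases before to 50 after the start, the higher peaks differed from all promoter peaks most in AP-1 and ETS matches. A window that the peak overlapped was found for 66 of the 112 higher promoter peaks, 8 of the 21 lower and 8834 of all 12206. AP-1 was matched in 10 of the 66 (15.2%), among them Tnfrsf8, Tnfrsf9, Emp1 and Ypel4, and in 4.39% of all windows at promoter peaks, while 7.81% of all 32851 windows in the table hold a match. ETS was matched in 5 of the 66 (7.58%) against 28.8% of windows at promoter peaks and 23.8% of all windows. The RUNX match was in 14 (21.2% against 12.2%), NFAT in 9 (13.6% against 15.4%), Egr in 11 (16.7% against 15.5%), KLF and Sp in 40 (60.6% against 68.5%) and E-box in 11 (16.7% against 14.2%). CRE and NR4A were each in 1 window, the NR4A match at Tcf12. Among the 8 lower windows, AP-1 was matched in 1, that of Tmem37. Such matches describe letters in these windows and were not tested.

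The step from intermediate to high reporter in Ly6C- cells was then set against the step from low to intermediate in Ly6C+ cells, which shares no library with it. The 2 steps differed at 287 peaks (0.631%), at 277 of them with the larger change from C to D. All 277 were also higher in D than in C, and at the other 10 the D minus C change was the lower one, with all 10 lower in D. The median level of the 277 was 1.36 rppm in C and 6.54 in D. At such levels in C most listed peaks were called higher, all 102 below 1 rppm and 365 of 397 at 1 to 2 rppm (91.9%). How far the listing of weak peaks sets the split of 277 to 10 was not tested. At Ppp2r5c, where B minus A was close to 0 and D minus C was 2.59, the difference of the steps was 2.51, and at Scyl2 it was 2.85. At Atn1, which encodes a transcriptional corepressor, it was -0.75: A had 44.6 and 45.8 rppm, B 42.8, 44.9 and 42.4, C 39.1, 41.2 and 40.3, and D 24.6, 21.1 and 22.2. Population A has 2 libraries, and the 287 became 184 without C2 and 185 without D3, 985 with the mouse as a block, 22 with edgeR, and 0 without mouse 2, without mouse 3, among peaks of at least 5 rppm, or at equal depth. At an unadjusted p below 0.05, limma gave 3632 peaks, and 2785, 1398, 2255 and 2691 in those 4 settings, where 5% of the peaks tested is 2275, or 1754 of those averaging 5 rppm or more; the count without mouse 3 was thus below that share. DESeq2 called 86.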

How the data were processed

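ATAC-seq libraries of 4 sorted naive CD4 T cell populations were analysed from 1 deposited table of 45508 peaks. Its values are in RPM (written rppm in the table), which the authors computed per peak, per the file headers; the total they were divided by is not given in the sources used here. Bowtie, MACS2 and mm10 are named in the submitters' processing notes, without versions or roles. Every listed peak reached 1 rppm in at least 3 libraries. All values were whole multiples of 1 read within 0.0006 rppm, and the recovered reads served only the edgeR and DESeq2 alternatives and the thinning; listed peaks hold 92.5 to 94.7% of each total. The distance of each peak from the start of its assigned gene was deposited by the authors in the same table, per the file headers.

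R 4.3.3 and limma 3.58.1 were used to fit log2(rppm + 1) with 1 mean per population over all 11 libraries, with the variance trend on level, two-sided, Benjamini-Hochberg adjusted, threshold 0.05. Mice pair the samples by the labels, and same-mouse libraries deviated together (r of deviations 0.183 to 0.556 over 15 pairs, against -0.433 to 0.203 over 30 other pairs). Deviations are from each population's own mean, so the pairs are not independent. Positive values within mice push the others down, and the A libraries mirror each other. The block on mouse was an alternative. Other alternatives were the pseudocount, a minimum of 5 rppm, scaling, edgeR 4.0.16, DESeq2 1.42.0, equal depth, and each library or mouse left out. The main fit was tested on simulated data without a mouse effect, changed only at peaks averaging 5 rppm or more.

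The comparison and the 15 gene lists were chosen with earlier results of these data known, so list counts are descriptions beside the share over all peaks. Peaks named in the text are the 12 largest changes in each direction (5 rppm or more on average in C or D, groups not overlapping, 1 per gene), up to 4 genes per list by smallest p, the 6 genes with most higher and most lower peaks, the genes of the sort, 6 promoter peaks (within 1000 bases of a start) in each direction, and the extremes of the difference of steps; other peaks of these and related genes were chosen after their values were seen. RefSeq symbols matched 45447 peaks. Intervals and errors cover the spread between these libraries only. Some peaks that this rule names are not reported here.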

Additional observations from a re-analysis of the deposited data

Results flagged for a closer look

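At 40 of the named peaks the change from C to D differed from the change from A to B by limma's test of the difference itself (adjusted p below 0.05 over all peaks). Some of these peaks were named for the size of their change from C to D, so their excess over the other step is in part fixed by that choice. The Scyl2 peak is also listed only through its D libraries, since A, B and C were below 1 rppm there. Other named peaks averaging below 1 rppm in C include those of Il1b, Dusp4, Cxcr5 and S100a6, and the Atxn1 peak with the larger value below. All 102 listed peaks at that level in C were called higher in D. How far the listing fixed the direction and the excess of these peaks was not tested. Values below are the difference of the 2 log2 changes, (D minus C) minus (B minus A), and B minus A rests on 2 libraries of A.

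At genes of activation and its restraint the excess was 1.43 at the Ctla4 intron 3 peak, 2.00 at Dusp4, 1.39 at Rasa2, 1.20 at Ndrg1 and 1.27 at the Tnfrsf8 promoter. It was 1.75 and 1.81 at the Ikzf2 peaks in introns 6 and 5, 1.45 at the Itgb8 promoter, 2.14 at Cxcr5 and 1.18 at Tox. Kinase and factor genes gave 2.07 at Prkcq, 1.34 at Fosb, 1.75 at Nfkbiz, 1.43 at Runx1, and 1.61 and 1.69 at the Foxp1 peaks in introns 4 and 1. At genes of effector cells it was 1.49 at the Cd44 peak 80.1 kb upstream, 1.39 at S100a6 and 2.11 at a peak in the 3′ UTR of Cx3cr1, a chemokine receptor.

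The peaks with the largest rises gave 2.85 at Scyl2, 2.51 at Ppp2r5c, 2.62 at Akr1d1, 2.41 at Stk39, 2.42 at Il1b, 2.20 at C1ql3, 2.19 at the Prr5l promoter, 2.15 at Ptger2, 2.10 at Sik3, 2.01 at Riok1, 1.85 at Ergic1 and 1.80 at Ankdd1b. Further values were 2.48 and 1.40 at the Atxn1 peaks in introns 3 and 2, 1.57 at the Rab11fip3 promoter and 1.32 at that of Lims1. In the other direction the values were -0.75 at Atn1, -0.70 at Hspa8, -0.86 at Pdlim4, -1.12 at the Irgc1 promoter and -1.09 at the Sspn peak in intron 55 of Itpr2, all of which fell from C to D.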

How the results depend on the processing

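No peak changed direction among called peaks in any alternative. The count of 2730 called peaks (2052 higher, 678 lower) was 1144 (738, 406) where only peaks averaging 5 rppm or more were tested, 1426 (1272, 154) with only the C and D libraries, 903 (779, 124) at equal depth, 900 (831, 69) without mouse 2 and 404 (391, 13) without mouse 3. Fewer peaks were tested in the first of these and fewer libraries or reads used in the others. Leaving out 1 library gave 1796 to 2897 called, 1407 to 1990 higher and 333 to 907 lower. Without mouse 3, higher peaks numbered 3 for TCR signalling genes, 1 for AP-1, NFAT and NF-kB factor genes and 2 for T cell identity genes. The thymocyte list kept 1, and the B cell and the CD8 T and NK cell lists kept 0. Of the 2052 higher and 678 lower peaks, edgeR called 2042 and 584 in the same direction and DESeq2 1856 and 436.

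With the replicate block on mouse the counts were 5166 (3104 higher, 2062 lower), 4836 (3061, 1775) with only the C and D libraries, and 7318 (4710, 2608) with edgeR, and the difference of steps rose from 287 peaks to 985, and to 1696 with edgeR. The block ended no call among the 201 named peaks and added 2.

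The 287 peaks for the difference of steps became 77 at a pseudocount of 0.25 and 544 at 5, 507 with quantile normalization, 22 with edgeR, 86 with DESeq2, and 0 among peaks averaging 5 rppm or more, at equal depth, without mouse 2 and without mouse 3. At an unadjusted p below 0.05 limma gave 2255, 2691, 2785 and 1398 peaks in those 4 settings, where 5% of the peaks tested is 1754 in the first and 2275 in the others. Leaving out 1 library gave 184 to 341. The cause of these shifts was not tested. The share of calls that were higher, 75.2%, was 70.1% with quantile normalization and 78.4% with median-of-ratios scaling. Among the 201 named peaks, 112 lost their call without mouse 3, 76 without mouse 2 and 78 at equal depth, against 21 to 35 without any 1 library. Depth limits D1 most, with 2597176 reads.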
